A study of Chlorocebus aethiops with 8 samples.

Results

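WWTR1 encodes TAZ, a transcriptional coactivator of the Hippo pathway, and was examined with 9 related genes: its paralogue YAP1, the DNA-binding partners TEAD1 and TEAD4, the kinases LATS1 and LATS2, the scaffold AMOTL2, and the targets ANKRD1, CCN1 and CCN2. The 10 genes, of 14132 named in the probe annotation, were read by the 24 probe sets that carry exactly 1 of these symbols, of 52865 probe sets on the array. WWTR1 was chosen by the measured intensity of 1 of its probe sets, which was higher under siRNA against RNA helicase A (RHA) than under control siRNA. Values of WWTR1 in the siRNA comparison are therefore given as a description, with no test. The other genes were chosen by their known roles, with earlier results of these data known.

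In the Hippo pathway, upstream kinases activate LATS1 and LATS2, which phosphorylate YAP and TAZ. Phosphorylated YAP and TAZ are held in the cytoplasm by 14-3-3 proteins or degraded after ubiquitination. Unphosphorylated YAP and TAZ enter the nucleus and bind TEAD factors, which recognise DNA. CCN1 and CCN2, which encode secreted matricellular proteins, and ANKRD1, a nuclear ankyrin repeat protein, are commonly used readouts of that activity. LATS2 and AMOTL2 are themselves targets as well as inhibitors, which closes a feedback loop.

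The cells were COS cells, an African green monkey (Chlorocebus aethiops) kidney line that carries SV40 large T antigen. Arrays with rhesus macaque probes read their RNA, so that a base difference between the species can lower a probe's signal. The 4 groups had 2 arrays each: polysomal RNA from cells given RHA siRNA or scrambled control siRNA, and cytoplasmic RNA from cells given RHA or control siRNA. Each siRNA was used at 0.5 nM and transfected a second time after the cells were split. Each transfection began with 4 h without serum, and after the first the cells had 24 h with serum. The polysomes came from sucrose gradients of cytoplasmic lysates. The labels do not say whether the replicates were separate cultures, so p-values here reflect only how far these arrays differ, which may be technical. RNA was read in bulk, so fewer cells and less RNA per cell cannot be told apart.

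The replicate numbers of the sample titles define set 1 and set 2, each with 1 array of every group. Median intensity was 19.3 to 20.8 on all arrays, but 51.3% of tested probe sets differed between the sets in limma, and results are given within each set for that reason. One array was unlike the rest of its set: across probe sets, control cytoplasm of set 1 had a median correlation of 0.949 with the other arrays of that set, where each of the other 7 arrays had at least 0.967. DHX9, the gene of RHA, read 97.2 and 269 in RHA siRNA polysomes against 359 and 477 in control polysomes (sets 1 and 2, probe set MmunewRS.268.1.S1_s_at). In cytoplasm DHX9 read 130 and 254 under RHA siRNA and 244 and 342 under control siRNA. The mean was 49.5% of control (log2 -1.01, SE 0.42). Limma gave it an adjusted p of 1.00, and of 0.162 once the replicate number was a block. The other 3 probe sets of DHX9 lay under the limit for testing. Of the markers for kidney epithelium, PAX8 (77.5 to 113) and AQP1 (856 to 2262) read above the testing limit on every array, while CDH1 (9.18 to 14.4) and UMOD did not. Among fibroblast markers VIM read 4043 to 6345 and COL1A2 at most 17.1. Of the leukocyte markers PTPRC read at most 12.9, while CD14 read 16.4 to 27.8 and LYZ 27.8 to 119. The mean log2 level of the 6 annotated fibroblast markers was 6.49 to 7.26 on RHA siRNA arrays and 6.34 to 7.41 on control arrays, and that of the 11 kidney markers was 5.52 to 5.81 on RHA siRNA arrays and 5.57 to 5.97 on control arrays. The 3 annotated leukocyte markers averaged 4.32 to 4.89 on RHA siRNA arrays and 4.08 to 4.71 on control arrays.

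Of the 24 probe sets, 21 were among the 50% of probe sets with the highest mean log2 intensity and were tested. The limit was a log2 of 4.32, an intensity of 19.9. The filter used the mean over all 8 arrays, whatever their group. The 3 probe sets left out all belonged to LATS1, with intensities between 5.47 and 16.2. Every gene kept at least 1 tested probe set. Levels are compared between arrays for a single probe set and not between probe sets, and no detection calls were used here.

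WWTR1 was read by 3 probe sets that went different ways. Probe set MmuSTS.4095.1.S1_at, the one behind the choice of the gene, had intensities of 216 and 349 in RHA siRNA polysomes and 59.7 and 87.7 in control polysomes (sets 1 and 2). In cytoplasm the same probe set read 186 and 384 under RHA siRNA, against 48.9 and 96.9 under control siRNA. The lowest of the 4 RHA siRNA arrays thus lay above the highest of the 4 control arrays, and within each group set 2 was above set 1.

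On the log2 scale this WWTR1 probe set averaged 8.10 ± 0.49 in RHA siRNA polysomes and 6.18 ± 0.39 in control polysomes, and 8.06 ± 0.74 and 6.11 ± 0.70 in cytoplasm under RHA and control siRNA (SD, n = 2 each). The polysomal and cytoplasmic means of a treatment differed by less than the SD between their arrays, so the order of the levels has the 2 RHA siRNA groups together above the 2 control groups. The fold over control was 3.61 and 3.98 in polysomes and 3.81 and 3.96 in cytoplasm (sets 1 and 2). The mean over both fractions was 3.84-fold (log2 1.94, SE 0.39). The choice rested on limma with the replicate number as a block, where 2 of 26383 probe sets (0.00758%) had an adjusted p under 0.05. They were this probe set and that of the linker histone gene H1-2, both at 0.0458, and the next probe set, of SPMAP1, was at 0.0683. Without the block 0% of probe sets were called. With the block and each of the 8 arrays left out in turn, the log2 fold change lay between 1.85 and 2.03. That range describes the size of the fold change only, and in most of these fits the adjusted p was not under 0.05. These p-values describe how the probe set was chosen and test nothing further.

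**Figure D1:**
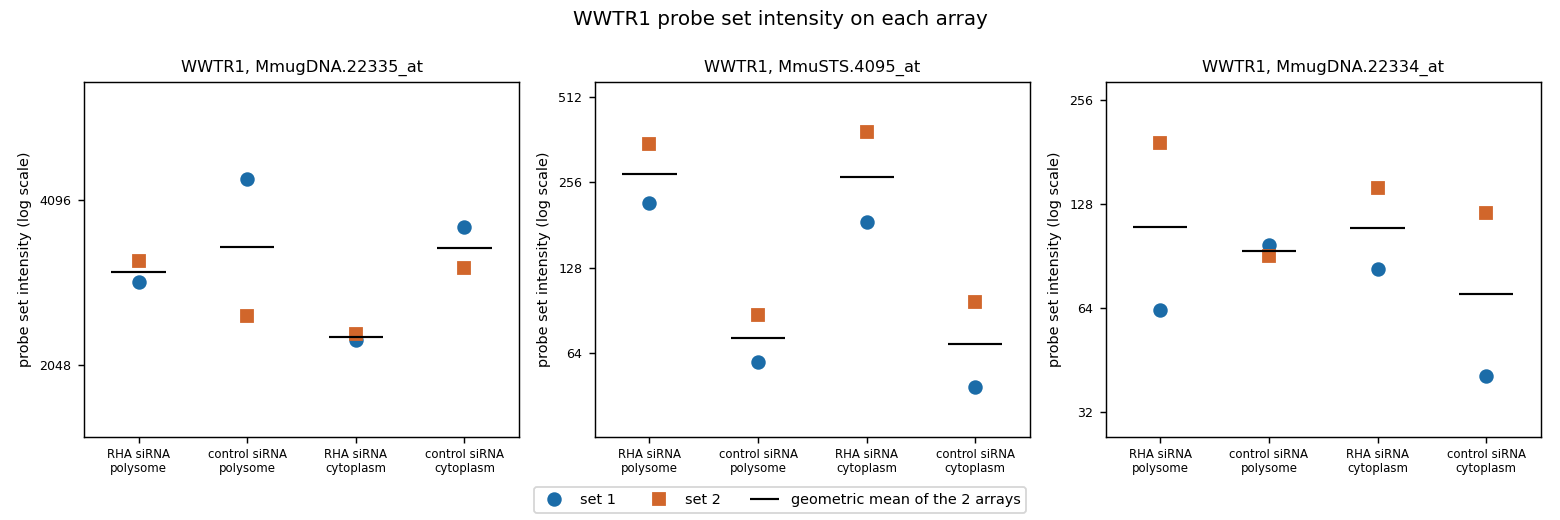
Intensity of the 3 WWTR1 probe sets (log scale) on each of the 8 arrays, by group, with set 1 as circles, set 2 as squares and the geometric mean of the 2 arrays as a bar. In MmuSTS.4095 all RHA siRNA arrays (186 to 384) lie above all control arrays (48.9 to 96.9), while the groups overlap in the other probe sets.

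The other WWTR1 probe sets did not share this pattern. MmugDNA.22335.1.S1_at read 2902 and 3163 in RHA siRNA polysomes and 4479 and 2512 in control polysomes. In cytoplasm it read 2270 and 2332 under RHA siRNA, against 3653 and 3078 under control siRNA. RHA siRNA gave the lower value in 3 of 4 comparisons between arrays of the same set and fraction, and the higher one in polysomes of set 2, with a mean log2 fold change of -0.35 (SE 0.26). Its groups overlapped.

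MmugDNA.22334.1.S1_at read 62.9 and 192 in RHA siRNA polysomes and 96.9 and 90.4 in control polysomes. In cytoplasm its values were 83.0 and 142 under RHA siRNA and 40.6 and 121 under control siRNA. It was higher under RHA siRNA in 3 of 4 comparisons and lower in polysomes of set 1 (log2 0.43, SE 0.51). From the lowest to the highest, the siRNA log2 fold changes of the 3 WWTR1 probe sets spanned 2.28. This was the widest span of the 6 genes with more than 1 tested probe set. WWTR1 was chosen for the highest of its 3 fold changes, so a wide span was favoured in advance and nothing is read from its rank. The part of the transcript that each probe set reads was not analysed here.

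YAP1, the paralogue of WWTR1, was read by 4 probe sets, of which 3 had a siRNA log2 fold change below 0 over both fractions. MmugDNA.35765.1.S1_at read 728 and 314 in RHA siRNA polysomes and 901 and 390 in control polysomes, and 348 and 281 in RHA siRNA cytoplasm, against 718 and 397 in control cytoplasm. In each fraction of each set it was lower under RHA siRNA than under control siRNA (4 of 4 comparisons), at 68.7% of control (log2 -0.54, SE 0.43). MmugDNA.12903.1.S1_s_at, whose suffix marks probes shared between transcripts, was also lower in 4 of 4, at 80.9% of control.

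MmugDNA.12903.1.S1_at, which shares the stem of its name with that probe set and may share sequence, was 0.99-fold of control (log2 -0.02, SE 0.27). It was higher under RHA siRNA in 3 of 4 comparisons and lower in cytoplasm of set 2 (0.677-fold). The fourth YAP1 probe set, MmugDNA.3556.1.S1_at, read 490 and 375 in RHA siRNA polysomes and 311 and 279 in control polysomes. In cytoplasm it read 373 and 269 under RHA siRNA and 288 and 488 under control siRNA, so it was higher in 3 of 4 comparisons and lower in cytoplasm of set 2. None of the YAP1 probe sets passed the threshold in limma, with adjusted p-values of 0.350 to 0.986 with the replicate block and 1.00 without it.

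TEAD1, a DNA-binding partner of YAP and TAZ, was higher under RHA siRNA in 4 of 4 comparisons in both of its probe sets. MmugDNA.11769.1.S1_at read 42.4 and 34.4 in RHA siRNA polysomes and 25.0 and 16.1 in control polysomes, and 36.5 and 38.8 in RHA siRNA cytoplasm, against 27.8 and 22.6 in control cytoplasm. All RHA siRNA arrays lay above all control arrays, although 1 control value was under the limit of 19.9. Its mean fold was 1.69 (log2 0.76, SE 0.25), with log2 differences of 0.57 and 0.94 in sets 1 and 2.

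MmuSTS.4586.1.S1_at read 24.3 and 107 in RHA siRNA polysomes and 13.1 and 55.1 in control polysomes. In cytoplasm this TEAD1 probe set read 15.7 and 97.4 under RHA siRNA and 13.2 and 69.9 under control siRNA. The sets differed more than the treatments, and 3 of the 4 arrays of set 1 were under the limit. Its log2 fold change was 0.65 (SE 0.94), with 0.57 and 0.72 within sets 1 and 2. Neither TEAD1 probe set passed the threshold in limma (adjusted p = 1.00 each, or 0.187 and 0.214 with the replicate block).

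TEAD4, another member of the TEAD family, read 197 and 130 in RHA siRNA polysomes and 159 and 135 in control polysomes. In cytoplasm TEAD4 read 212 and 108 under RHA siRNA and 163 and 94.4 under control siRNA. It was higher in 3 of 4 comparisons by small amounts (log2 0.20, SE 0.34), and its groups overlapped.

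**Figure D2:**
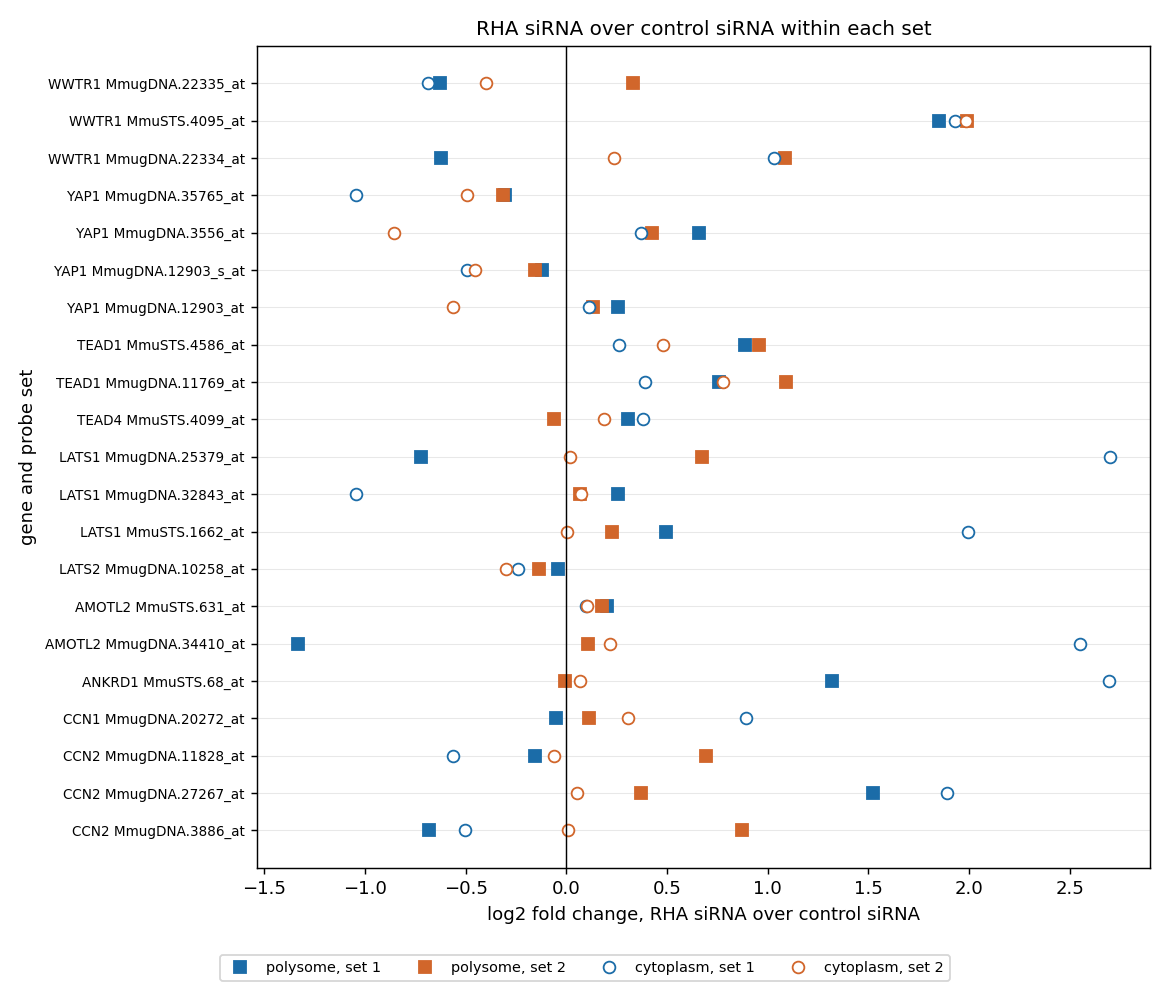
Log2 fold change of RHA siRNA over control siRNA within each set for the 21 tested probe sets, with polysomal RNA as filled squares, cytoplasmic RNA as open circles, set 1 in blue and set 2 in orange. The WWTR1 probe set MmuSTS.4095 lies between 1.85 and 1.99 in all 4, and both TEAD1 probe sets lie above 0. LATS1 MmugDNA.25379, AMOTL2 MmugDNA.34410 and ANKRD1 reach 2.55 to 2.70 in cytoplasm of set 1 alone. There the other tested probe sets of LATS1 lie at -1.05 and 1.99, and that of AMOTL2 at 0.10.

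LATS1, a kinase that phosphorylates YAP and TAZ, had 3 tested probe sets that disagreed. MmugDNA.25379.1.S1_at read 547 and 434 in RHA siRNA polysomes and 902 and 272 in control polysomes, and 1477 and 335 in RHA siRNA cytoplasm, against 227 and 331 in control cytoplasm. The set 1 arrays spread from 227 to 1477, and the set 2 arrays from 272 to 434. MmuSTS.1662.1.S1_at was higher in 4 of 4 comparisons, with 57.2 and 17.9 in RHA siRNA polysomes and 40.7 and 15.3 in control polysomes. Its cytoplasmic values were 57.1 and 14.8 under RHA siRNA and 14.3 and 14.7 under control siRNA, so the set 2 arrays were all under the limit. MmugDNA.32843.1.S1_at had a log2 fold change of -0.16 (SE 0.31), lower in cytoplasm of set 1 (0.484-fold) and higher in the other 3 comparisons, and the 3 untested LATS1 probe sets had -0.29, -0.17 and -0.01.

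LATS2, the related kinase and also a target gene, had 1 probe set with little spread. It read 29.6 and 29.6 in RHA siRNA polysomes and 30.5 and 32.6 in control polysomes, and 31.6 and 31.7 in RHA siRNA cytoplasm, against 37.4 and 39.0 in control cytoplasm. LATS2 was below control in 4 of 4 comparisons, with folds of 0.813 to 0.972. The mean was 88.3% of control (log2 -0.18, SE 0.20), which is within the error of the fit.

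AMOTL2, a scaffold that binds YAP and TAZ, read 4000 and 4355 in RHA siRNA polysomes and 3476 and 3855 in control polysomes by probe set MmuSTS.631.1.S1_at. In cytoplasm the values were 3722 and 4101 under RHA siRNA and 3480 and 3820 under control siRNA. The difference was small and had the same direction in 4 of 4 comparisons, with folds of 1.07 to 1.15 (log2 0.14, SE 0.21). The second AMOTL2 probe set, MmugDNA.34410.1.S1_at, read 248 and 82.2 in RHA siRNA polysomes and 626 and 76.2 in control polysomes. In cytoplasm it read 563 and 92.9 under RHA siRNA and 95.8 and 80.0 under control siRNA, so it was lower in polysomes of set 1 and higher in cytoplasm of set 1, and nearly level in set 2.

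Among the readout genes, ANKRD1 read 130 and 390 in RHA siRNA polysomes and 52.2 and 392 in control polysomes. In cytoplasm ANKRD1 read 204 and 375 under RHA siRNA and 31.5 and 358 under control siRNA. It was 2.49-fold and 6.47-fold of control in polysomes and cytoplasm of set 1, and 0.997-fold and 1.05-fold in set 2. Its log2 fold change over both fractions was 1.02 (SE 0.99). With control cytoplasm of set 1 left out, the fit with no block gave 0.14. That fit set RHA siRNA cytoplasm of both sets against control cytoplasm of set 2 alone, so differences between the sets enter it.

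CCN1 read 1001 and 1526 in RHA siRNA polysomes and 1037 and 1410 in control polysomes. In cytoplasm CCN1 read 1351 and 1673 under RHA siRNA, against 727 and 1354 under control siRNA. It was higher in both cytoplasmic comparisons (1.86-fold and 1.24-fold) and close to control in polysomes (0.966-fold and 1.08-fold). Its log2 fold change was 0.32 (SE 0.31) over both fractions. Leaving out control cytoplasm of set 1 gave 0.09, again with no block and with set 2 alone as the cytoplasmic control.

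The 3 CCN2 probe sets disagreed. MmugDNA.27267.1.S1_at read 628 and 287 in RHA siRNA polysomes and 219 and 222 in control polysomes, and 658 and 243 in RHA siRNA cytoplasm, against 178 and 234 in control cytoplasm. All RHA siRNA arrays lay above all control arrays, by a wide margin in set 1 (2.87-fold in polysomes and 3.70-fold in cytoplasm) and a narrow one in set 2 (1.29-fold and 1.04-fold in the same order). MmugDNA.11828.1.S1_at read 856 and 680 in RHA siRNA polysomes and 953 and 421 in control polysomes, and was lower in 3 of 4 comparisons (log2 -0.02, SE 0.37). MmugDNA.3886.1.S1_at was higher in 2 of 4 (log2 -0.08, SE 0.31).

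**Figure D3:**
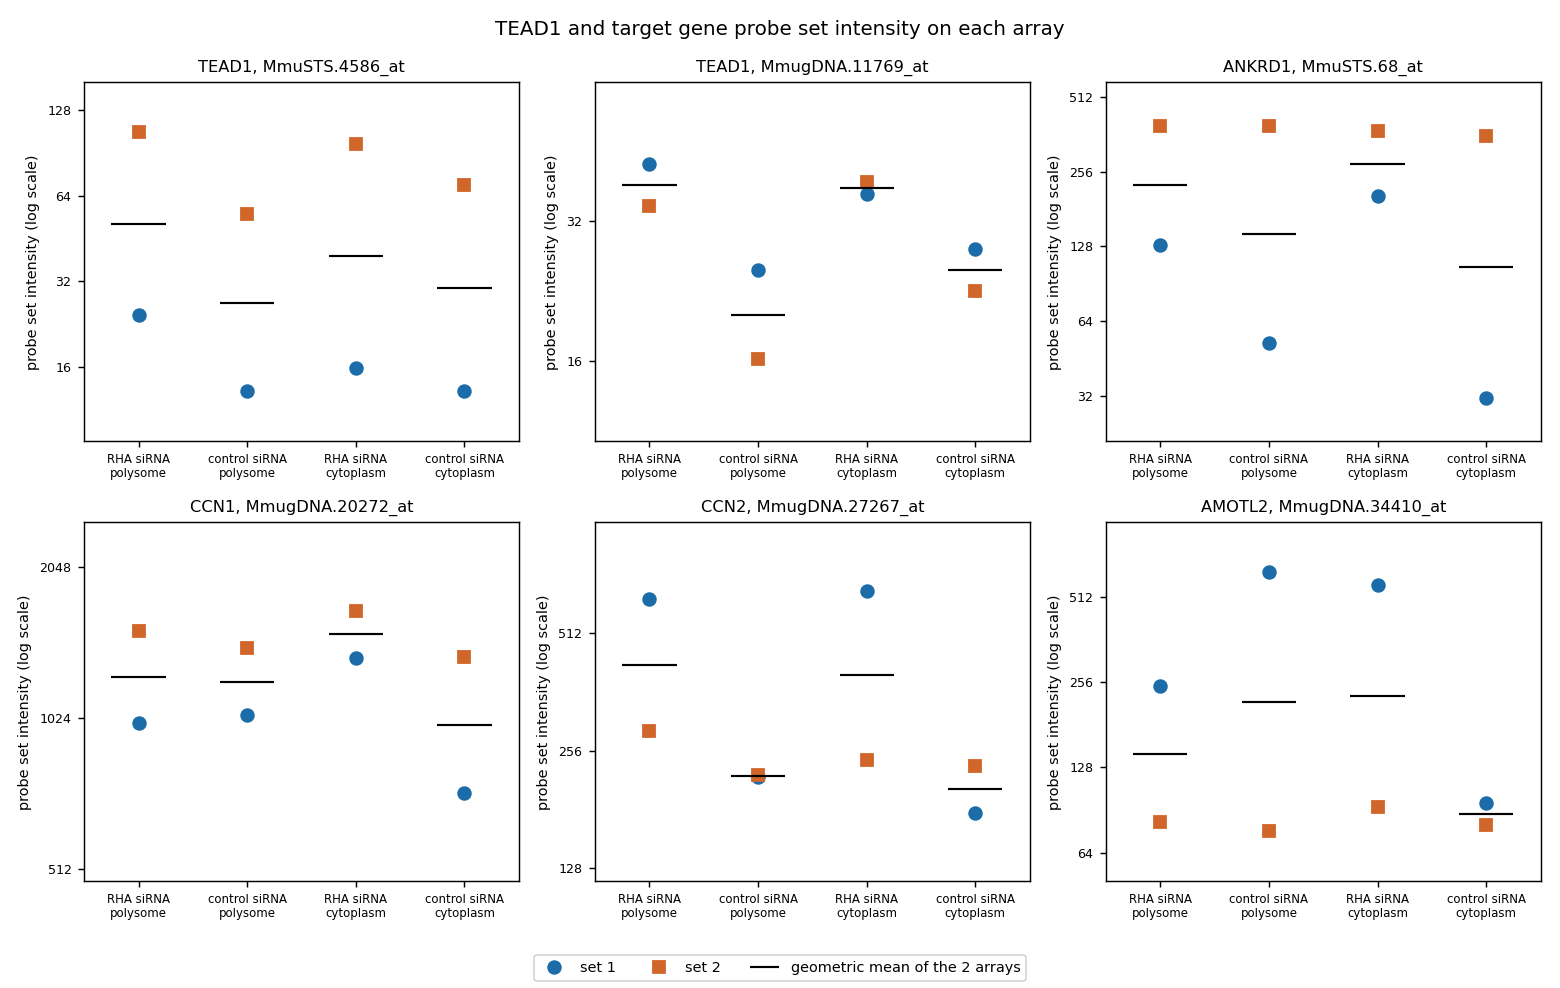
Intensity (log scale) of the TEAD1 probe sets and of ANKRD1, CCN1, CCN2 (MmugDNA.27267) and AMOTL2 (MmugDNA.34410) on each array, with set 1 as circles, set 2 as squares and the geometric mean of the 2 arrays as a bar. ANKRD1 differs between the treatments in set 1 (31.5 to 204) and is level in set 2 (358 to 392).

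Across the members, 6 of 21 probe sets (28.6%) lay above control in 4 of 4 comparisons within a set, as did 9.81% of all tested probe sets, and 3 of 21 (14.3%) lay below control in 4 of 4, as did 8.99% of all. Every RHA siRNA array was above every control array for 3 probe sets of the members (1 each of WWTR1, TEAD1 and CCN2), against 1.43% of all tested, and below for 0, against 1.38%. With the cytoplasmic comparison of set 1 left out, 7 of 21 (33.3%) lay above control in the 3 other comparisons, against 15.7% of all, and 3 of 21 below, against 15.3%. Since this comparison chose WWTR1, nothing is read from these counts. The median log2 fold change was 0.20 for the members and 0.03 for all tested probe sets. Of the 6 genes with more than 1 tested probe set, the siRNA fold changes over both fractions shared a sign in 2, TEAD1 and AMOTL2, and differed in sign for WWTR1, YAP1, LATS1 and CCN2. Limma called 0 of the other members (adjusted p = 1.00 for all without the block, where 540 of 26383 probe sets had an unadjusted p under 0.05 and 2 of them were of the members, both higher: WWTR1 MmuSTS.4095 and TEAD1 MmugDNA.11769). With the block 3156 probe sets had an unadjusted p under 0.05, of which 6 were of the members: these 2, TEAD1 MmuSTS.4586, ANKRD1 and CCN2 MmugDNA.27267, all higher, and YAP1 MmugDNA.35765, lower. The calls were 0% of all tested probe sets in cytoplasm and 0% in polysomes, with or without the block, where 426 (block: 3174) and 137 (block: 1334) had an unadjusted p under 0.05.

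For the control transcripts actin, EF1A and GAPDH the array has probe sets at both ends. Their log2 level at the 3' end minus that at the 5' end is a sign of RNA integrity and of the reach of the amplification. This difference moved with some of the member values in set 1 and not with others. In set 1 it was 3.73 (log2) in RHA siRNA polysomes and 2.54 in control polysomes, and 2.98 in RHA siRNA cytoplasm and 4.09 in control cytoplasm. The set 1 arrays with the smaller difference had the higher values of AMOTL2 MmugDNA.34410 and LATS1 MmugDNA.25379. CCN2 MmugDNA.27267 did not follow it, with 628 in RHA siRNA polysomes and 219 in control polysomes of set 1. In set 2 the difference lay between 3.56 and 4.15, where AMOTL2 MmugDNA.34410 stayed between 76.2 and 92.9. WWTR1 MmuSTS.4095 was higher under RHA siRNA in polysomes of set 1, where the difference was larger than in control, and in cytoplasm of set 1, where it was smaller. The part of RNA integrity in these results was not tested.

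The series asks how loading of RNAs onto polysomes changes when RHA is lowered. That change is the polysomal minus the cytoplasmic siRNA effect. It was not the value that chose WWTR1, but earlier results of these data were known when the members were chosen. The same amount of RNA went into each amplification, so loading is relative to that of other RNAs. The elevated WWTR1 probe set MmuSTS.4095 had similar values in both fractions: its polysomal over cytoplasmic ratio was 1.16 and 0.908 under RHA siRNA and 1.22 and 0.904 under control siRNA (sets 1 and 2). Its change in loading was log2 -0.03 (SE 0.78), or -0.08 and 0.01 within the sets. WWTR1 MmugDNA.22335 had ratios of 1.28 and 1.36 under RHA siRNA and 1.23 and 0.816 under control siRNA. Its change was log2 0.40 (SE 0.53), with 0.06 and 0.73 within the sets. WWTR1 MmugDNA.22334 had ratios of 0.758 and 1.35 under RHA siRNA and 2.38 and 0.750 under control siRNA. Its change was log2 -0.40 (SE 1.02), with -1.65 and 0.85 within the sets, so the WWTR1 probe sets did not share a sign.

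All 4 YAP1 probe sets had a higher polysomal over cytoplasmic ratio under RHA siRNA than under control siRNA in both sets. For MmugDNA.3556.1.S1_at the ratios were 1.32 and 1.39 under RHA siRNA and 1.08 and 0.572 under control siRNA, which is a change of log2 0.78 (SE 0.56; 0.29 and 1.28 within the sets). For MmugDNA.35765.1.S1_at they were 2.09 and 1.12 under RHA siRNA and 1.25 and 0.983 under control siRNA (log2 0.46, SE 0.86). The shared-probe set MmugDNA.12903.1.S1_s_at changed by log2 0.34 (SE 0.51) and its namesake by 0.42 (SE 0.54). Adjusted p-values in limma were 1.00 for each, or 0.967 to 0.971 with the replicate block, so none of them passed the threshold.

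Both TEAD1 probe sets also had higher ratios under RHA siRNA in both sets. MmuSTS.4586.1.S1_at had 1.54 and 1.10 under RHA siRNA and 0.995 and 0.788 under control siRNA, a change of log2 0.55 (SE 1.88). Its set 1 ratios came mostly from intensities under the limit of 19.9. MmugDNA.11769.1.S1_at had 1.16 and 0.887 under RHA siRNA and 0.900 and 0.714 under control siRNA, a change of log2 0.34 (SE 0.50). Neither change of TEAD1 passed the threshold in limma (adjusted p = 0.967 each with the replicate block). Ratios of CCN1 went the other way in both sets, with 0.741 and 0.912 under RHA siRNA and 1.43 and 1.04 under control siRNA (log2 -0.57, SE 0.62). ANKRD1, TEAD4 and AMOTL2 MmugDNA.34410 were also lower in both sets, with log2 changes of -0.72 (SE 1.97), -0.16 (SE 0.69) and -2.00 (SE 1.75). Within sets 1 and 2 the changes were -1.38 and -0.07 for ANKRD1, and -0.07 and -0.25 for TEAD4. AMOTL2 MmugDNA.34410 had -3.89 and -0.11, so its mean, like that of ANKRD1, came mostly from set 1.

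In all, the change in loading was above 0 in both sets for 10 of 21 probe sets (47.6%), against 26.1% of all tested, and below 0 in both sets for 4 (19.0%), against 24.0% of all. The 10 came from 6 genes (4 of YAP1, 2 of TEAD1, and 1 each of WWTR1, LATS2, AMOTL2 and CCN2), and probe sets of a gene are not independent. The median change of the members was log2 0.18, and that of all tested probe sets was -0.02. Limma called 0% of all tested probe sets for this comparison, with or without the block, at 46 of 26383 (block: 1048) with an unadjusted p under 0.05, of which 0 (block: 1, AMOTL2 MmugDNA.34410) were of the members.

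**Figure D4:**
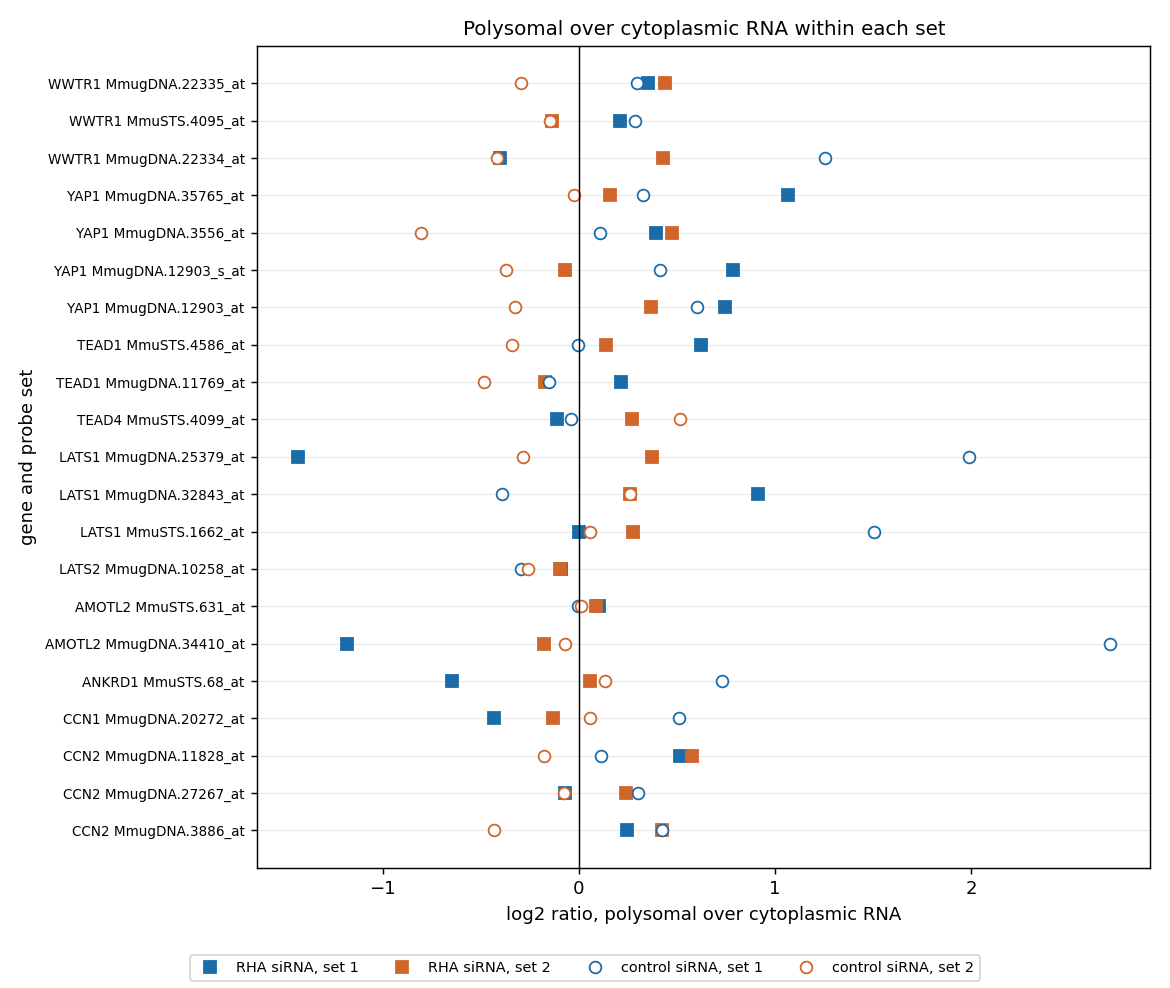
Log2 ratio of polysomal over cytoplasmic RNA within each set for the 21 tested probe sets, with RHA siRNA as filled squares, control siRNA as open circles, set 1 in blue and set 2 in orange. The squares of YAP1 and TEAD1 lie right of the circles of the same colour in all 6 of their probe sets, and those of CCN1 lie left.

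The polysomal over cytoplasmic ratio itself, averaged over both siRNAs, was above 1 for 19 of 21 probe sets. The median was log2 0.16, against 0.07 for all tested probe sets, 61.7% of which were above 0. The 19 include small values, such as log2 0.001 for CCN1 and 0.05 for WWTR1 MmuSTS.4095. Only 1 of 21 (4.76%) was higher in polysomes in 4 of 4 comparisons, against 8.67% of all tested. The sign held for 6 of 21 in all 13 alternative settings of the processing. The ratio was highest for LATS1 MmuSTS.1662 (log2 0.46, SE 0.61), which was dim, and was 0.38 (SE 0.43) for YAP1 MmugDNA.35765. LATS2 was lower in polysomes in 4 of 4 comparisons (log2 -0.19, SE 0.20), as were 6.27% of all tested probe sets, and LATS1 MmuSTS.1662 was higher in 4 of 4, as were 8.67%. The calls in limma were 0% for both siRNAs together, 0% under RHA siRNA and 0% under control siRNA, with or without the block, and the smallest adjusted p of a member was 0.858 with the block for both siRNAs together. Unadjusted p-values under 0.05 numbered 59, 70 and 55 of 26383 in these 3 fits (block: 1061, 1177 and 1087), of which 0 were of the members.

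Genes around the members in the pathway were counted by their probe set of highest mean. Of 23 upstream kinases, adaptors and cadherins of the pathway, 19 were tested, and 10 had a siRNA log2 fold change above 0 (median 0.05), where 54.9% of all tested probe sets did (median 0.03). WWC1, the adaptor KIBRA that helps activate LATS kinases, had 0.51 (SE 0.66), and STK4, an upstream kinase known as MST1, had 0.45 (SE 1.27), each higher in 4 of 4 comparisons, as were 9.81% of all tested probe sets. STK3 and TAOK2, also upstream kinases and named after their values were seen, had -0.12 (SE 0.40) and -0.13 (SE 0.32) and were lower in 4 of 4, as were 8.99% of all. AJUBA, a LIM protein that inhibits LATS kinases, had -0.53 (SE 0.27), with 3 of its 4 tested probe sets of the other sign. Limma called 0 of these genes with or without the block, with 0 (block: 2) at an unadjusted p under 0.05. Among all 26383 tested probe sets, 540 (block: 3156) had such a p.

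Of 6 further TEAD factors and cofactors, 4 were tested and 1 was above 0. It was VGLL4, a TEAD cofactor that competes with YAP and TAZ, at 0.49 (SE 0.74), whereas VGLL3, a TEAD cofactor of the same family, had -0.44 (SE 0.36) and was lower in 4 of 4, although its second tested probe set had the other sign. Of 13 genes for turnover and cytoplasmic retention of TAZ and YAP, 6 were tested and all 6 were above 0 (median 0.20), among them YWHAZ, a 14-3-3 protein, at 0.50 (SE 0.34) and CUL1, a ubiquitin ligase scaffold, at 0.23 (SE 0.25). None of these 6 was higher in 4 of 4 comparisons within a set. Of all tested probe sets, 54.9% were above 0 (median 0.03) and 9.81% were higher in 4 of 4. Limma called 0 genes of both lists with or without the block, with 0 (block: 0) at an unadjusted p under 0.05.

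Of 17 other known targets of YAP and TAZ, 11 were tested and 7 were above 0 (median 0.14), where 54.9% of all tested probe sets were (median 0.03). GADD45A, a stress-induced growth arrest gene that is also a target of p53, had 1.06 (SE 0.23), with 2 of its 3 tested probe sets of that sign. F3, which encodes tissue factor, had 0.68 (SE 0.68), and AXL, a receptor tyrosine kinase, had 0.50 (SE 0.49). CCDC80 and RBMS3 had -0.50 (SE 0.32) and -0.49 (SE 0.33). Limma called 0 of these targets, with or without the block, with 1 (block: 3) at an unadjusted p under 0.05. Among all 26383 tested probe sets, 540 (block: 3156) had such a p.

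The genes whose pattern over the 8 arrays was nearest to that of WWTR1 MmuSTS.4095 were found by the root mean square difference of log2 values centred on the mean of their set, over 16071 other probe sets with 1 symbol. They were H1-2 (0.253), NOL4 (0.287), SPINK6 (0.307), CREBZF (0.311) and SLC6A15 (0.319), against a median of 0.988 for all compared. H1-2 encodes a linker histone, SPINK6 a protease inhibitor, CREBZF a bZIP transcription factor and SLC6A15 an amino acid transporter. The other WWTR1 probe sets were farther away, with 0.826 for MmugDNA.22334 and 1.16 for MmugDNA.22335. NOL4 had a siRNA log2 fold change of 1.49, with 1.71 and 1.27 within sets 1 and 2 and both of its 2 tested probe sets above 0.

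**Figure D5:**
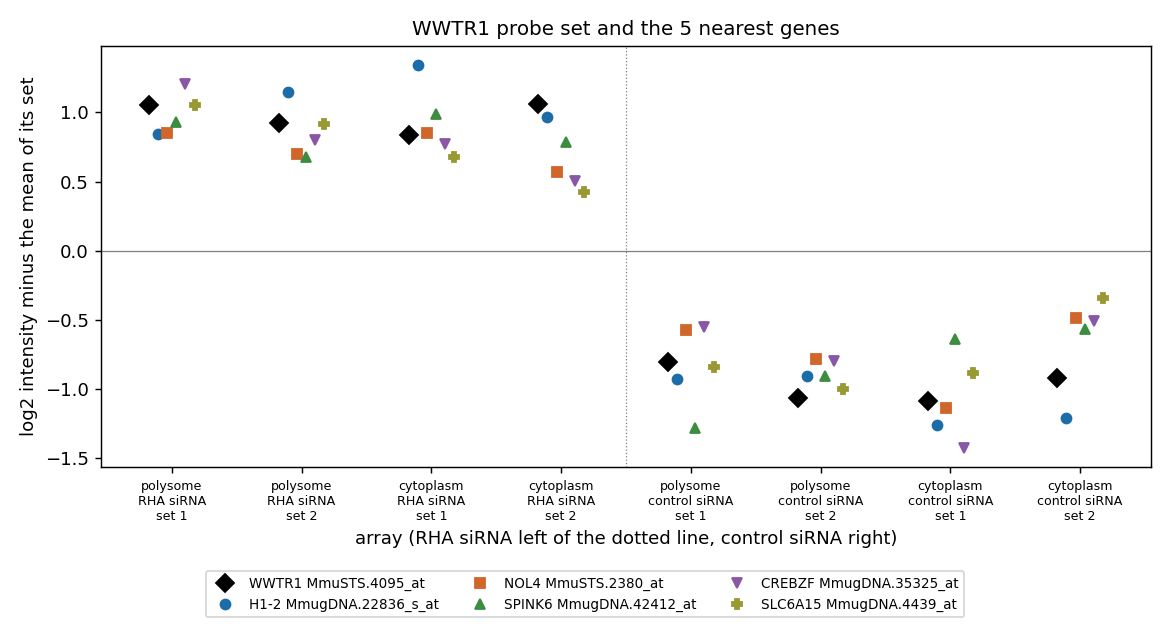
Log2 intensity minus the mean of its set for the WWTR1 probe set MmuSTS.4095 (diamonds) and the probe sets of the 5 nearest genes, with the 4 RHA siRNA arrays left of the dotted line and the 4 control arrays right of it. All 6 lie above 0 on the RHA siRNA arrays and below 0 on the control arrays, as the choice of the nearest probe sets fixes.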

How the data were processed

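The deposited table holds 1 linear intensity per probe set and array, taken as normalised by the authors. GCOS and RMA are named, per the submitters' processing notes, with neither version nor role. Values were put on the log2 scale. Of 52865 probe sets, 99 controls were left out, and of the rest the 26383 brightest (50%, by mean log2 over the 8 arrays) were tested. Genes were named from the platform annotation, where 24969 probe sets have 1 symbol, 361 several and 27535 none listed. Arrays give no read depth, and their number limits the precision.

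A model of 4 groups was fitted over all 8 arrays by lmFit and eBayes (limma 3.58.1, R 4.3.3) and tested two-sided in 7 contrasts, with Benjamini-Hochberg adjustment over all tested probe sets and a threshold of 0.05. The replicate number was a block in an alternative fit. Other alternatives were quantile normalisation, log2 of the value plus 16, other filters and leaving out each array. Named genes were all probe sets of the members, DHX9, per pathway list up to 3 genes per direction with the same sign in both sets, and the 5 nearest genes. Some of them are given as counts only. Members and lists were chosen with earlier results of these data known.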

Additional observations from a re-analysis of the deposited data

How the results depend on the processing

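Without the block 0 probe sets were called in each of the 7 comparisons, also with no filter, with only the brightest 25% of probe sets, with quantile normalisation, with log2 of the value plus 16 and without any 1 array. With the replicate block 2 were called for RHA over control siRNA over both fractions, and 0 in each other comparison. With the block and an array left out, the count ranged from 0 to 954 over both fractions, 0 to 1150 in cytoplasm, 0 to 274 for polysomal over cytoplasmic RNA under both siRNAs and 0 to 748 under control siRNA. Each highest count came when control cytoplasm of set 2 was left out, so that the array least like its set was the only cytoplasmic control. With control cytoplasm of set 1 left out, 33 were called over both fractions. The lone array of a group was assumed to vary like the other groups. Replicates of the same number deviated together from their group means (r = 0.68 to 0.87 across probe sets for pairs of groups), but the labels do not say what a number stands for. It was therefore used to describe values within a set and as an alternative block, and not in the main model.

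The log2 fold change of WWTR1 MmuSTS.4095 over both fractions was 1.94 with quantile normalisation, 1.72 with 16 added and 1.68 to 2.20 without 1 array. Of the 21 tested member probe sets, 13 kept the sign of that fold change in all 13 alternatives. The sign of the change in loading was kept by 10, and that of the polysomal over cytoplasmic ratio under both siRNAs by 6. TEAD1 MmuSTS.4586 turned to -0.01 without the cytoplasmic RHA siRNA array of set 2, although it was higher in 4 of 4 comparisons within a set. These fits without 1 array had no block, so differences between the sets enter their fold changes and signs. Leaving out the cytoplasmic comparison of set 1, an alternative chosen after seeing the data, gave 7 of 21 member probe sets higher in the 3 other comparisons, against 15.7% of all tested, and 3 lower, against 15.3%. Dim probe sets, among them those of LATS1 and TEAD1, have uncertain folds.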

Other observations

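In polysomal against cytoplasmic RNA, averaged over both siRNAs, 15 of the 19 tested upstream genes of the pathway had a log2 ratio above 0 (median 0.23), where 61.7% of all tested probe sets did (median 0.07). FRMD6, a FERM domain protein upstream of the kinases, had 0.44 (SE 0.35) and MAP4K4, a kinase that can activate LATS kinases, 0.31 (SE 0.89), each higher in polysomes in 4 of 4 comparisons within a set. For MAP4K4 2 of 3 tested probe sets had that sign. FJX1, a target gene, had 0.38 (SE 0.26) and was also higher in 4 of 4. Of the tested genes, 3 of 19 upstream and 2 of 11 other targets were higher in 4 of 4, against 8.67% of all tested probe sets. In both lists 0 were lower in 4 of 4, against 6.27% of all. The change in loading under RHA siRNA was above 0 for 11 of the 19 upstream genes, 2 of 4 TEAD factors and cofactors, 1 of 6 genes for turnover and retention (median -0.37) and 3 of 11 other targets (median -0.13), where 48% of all tested probe sets were above 0 (median -0.02). In it AJUBA had log2 0.83 (SE 0.54; 0.92 and 0.75 within sets 1 and 2), with 4 of 4 tested probe sets of that sign. IGFBP3, a secreted binding protein of insulin-like growth factors, had -0.62 (SE 0.42). Limma called 0 of the list genes in either comparison, with or without the replicate block. With an unadjusted p under 0.05 there were 0 in either without the block, and with it 1 upstream gene for the fraction and 1 target for the change in loading.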
